A study of Homo sapiens with 14 samples.

Results

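The genes described here are 8 factors of the caudal end of the embryo: the caudal homeobox genes CDX1, CDX2 and CDX4, the homeobox genes NKX1-2 and EVX1, the zinc finger gene SALL4, the RNA-binding protein gene LIN28A and the ligand gene GDF11. They were chosen by name and not by a threshold on a measured value, though with earlier results of these data known. All 8 were found among the 63677 gene IDs of the bulk RNA-seq tables and among the 17493 genes of the gastruloid table. On GRCh37, the build of the bulk tables, the 3 CDX genes lie at chr5:149546341-149564121 (CDX1), chr13:28535055-28543452 (CDX2) and chrX:72666889-72675007 (CDX4). The others lie at chr10:126133812-126138604 (NKX1-2), chr7:27282319-27290112 (EVX1), chr20:50398870-50419060 (SALL4), chr1:26737308-26756219 (LIN28A) and chr12:56136906-56151048 (GDF11). Each was followed in 12 bulk libraries and in the nuclei of 1 preparation of gastruloids.

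The CDX proteins are transcription factors that act below WNT and FGF signals, turn on HOX genes and keep the body axis growing at its posterior end. That growth is fed by neuromesodermal progenitors, cells that carry both TBXT and SOX2 and give rise to spinal cord and to presomitic mesoderm, where TBX6 is on. CDX2 is also a lasting identity factor of the hindgut and intestine. GDF11, by contrast, is a secreted TGF-beta ligand known for ending trunk formation, and LIN28A blocks maturation of let-7 microRNAs.

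The study asked how primate-specific transposable elements act on genes during early human development. Bulk RNA-seq came from H9 human embryonic stem cells (hESC, 2 libraries), from endoderm grown for 3 days in Activin A at 100 ng/ml, with the GSK-3 inhibitor CHIR-99021 at 5 µM on the first day and 0.5 µM on the next (3 libraries), from endoderm of cells carrying LTR5 sgRNAs (3 libraries), and from foregut cells grown for 3 further days without (2 libraries) and with (2 libraries) the sgRNAs. The paper made foregut by a supplier's pancreatic differentiation protocol, with 3 days of endoderm and then 3 days of foregut. No Activin A or CHIR-99021 dose is given for the foregut libraries. The endoderm and foregut cells carry dCAS9-KRAB, a catalytically dead Cas9 joined to a repressor domain. The sgRNAs steer it to LTR5 elements, the long terminal repeats of the HERVK family. The gastruloids are aggregates of H9 cells pre-treated with the same inhibitor at 3 µM, then formed from 800 cells per well in the inhibitor at 3 µM with 10 µM ROCK inhibitor for 18 h and collected at 72 h, in a single preparation. The labels of the hESC libraries name no dCAS9-KRAB, so comparing endoderm with hESC also spans any difference in that construct. For the foregut libraries the titles and the status fields disagree, the status of the controls being hESC and that of the CRISPRi libraries being endoderm without sgRNA, and groups were taken from the titles. The foregut controls held a summed level of 7 pluripotency genes of 47.4 to 48.8 CPM (reads scaled to library size with TMM factors) against 2495 to 2773 in hESC. The paper states that its RNA-seq experiments contain biologically independent replicates. The labels do not say which libraries came from separate cultures, so p-values measure the spread between these libraries.

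Libraries held 11583063 to 37152434 gene reads. The foregut libraries detected 15005 to 17926 genes and the others 19678 to 20973. Foregut sgRNA replicate 2, with the fewest genes, held 20811663 gene reads, and the other 3 foregut libraries held more reads than any hESC or endoderm library. Sums of 6 definitive endoderm markers were 18.3 to 31.5 CPM in hESC, 4595 to 5242 in control endoderm and 566 to 705 in control foregut. The sgRNA was designed on sequence common to LTR5B, and LTR5_Hs is the related younger subfamily. Only integrants named LTR5_Hs or LTR5B alone were counted here, and those joined to internal HERVK sequence were left out. Reads on 552 LTR5_Hs integrants were 11.3, 13.0 and 10.8 RPM (scaled to all gene reads) in control endoderm and 7.80, 9.88 and 11.8 RPM with sgRNA, and in foregut 8.24 and 8.72 RPM without and 4.02 and 8.99 RPM with sgRNA. Reads on 368 LTR5B integrants were 2.19, 2.28 and 1.59 RPM in control endoderm and 1.02, 1.83 and 2.07 RPM with sgRNA, and in foregut 6.95 and 6.38 RPM without and 2.92 and 2.40 RPM with sgRNA. For the integrants counted, the groups overlapped for both subfamilies in endoderm and for LTR5_Hs in foregut. For LTR5B both foregut sgRNA libraries lay below both controls.

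The start sites of these genes could be set against the open chromatin of the gastruloids, because the peaks and the RefSeq promoter table are both on GRCh38. Of the 8 genes, 7 had a peak over the start site, against 70.6% of protein-coding genes, and the exception was CDX4. The 7 peaks were 809 to 907 bases wide. Within 1000 bases of the start the count was again 7 of 8, against 79.3% of protein-coding genes, CDX4 being without a peak there too, while 4 peaks lay over its gene body and covered 39.9% of it. Peaks were called over all nuclei together, so they do not say in which nuclei a site was open.

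Promoter sequence from RefSeq (GRCh38.p14) was at hand for 5 of the 8 genes, and CDX1, SALL4 and LIN28A had no entry. The 250 bases before the start site are shown for the 2 CDX genes that differed in the peak and for the 2 homeobox genes whose levels set hESC and endoderm apart, as described further on. They lie at chr13:27969316-27969565 on the minus strand (CDX2), chrX:73446803-73447052 on the plus strand (CDX4), chr10:124450036-124450285 on the minus strand (NKX1-2) and chr7:27242552-27242801 on the plus strand (EVX1). Capitals mark matches on either strand to the TCF/LEF core CTTTGA, the CDX core TTTATNG, the T-box core GGTGTGA or the octamer ATTTGCAT, motifs picked after the promoters were seen.
CDX2: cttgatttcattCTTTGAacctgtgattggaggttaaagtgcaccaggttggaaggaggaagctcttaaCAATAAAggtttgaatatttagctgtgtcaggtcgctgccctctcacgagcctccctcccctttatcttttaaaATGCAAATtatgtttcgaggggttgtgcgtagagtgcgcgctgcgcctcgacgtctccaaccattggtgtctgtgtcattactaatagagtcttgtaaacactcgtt
CDX4: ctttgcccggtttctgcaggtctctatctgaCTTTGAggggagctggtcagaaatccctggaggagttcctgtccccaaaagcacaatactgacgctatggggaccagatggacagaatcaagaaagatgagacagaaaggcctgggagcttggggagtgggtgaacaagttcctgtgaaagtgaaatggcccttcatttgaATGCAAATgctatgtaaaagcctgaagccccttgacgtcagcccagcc
NKX1-2: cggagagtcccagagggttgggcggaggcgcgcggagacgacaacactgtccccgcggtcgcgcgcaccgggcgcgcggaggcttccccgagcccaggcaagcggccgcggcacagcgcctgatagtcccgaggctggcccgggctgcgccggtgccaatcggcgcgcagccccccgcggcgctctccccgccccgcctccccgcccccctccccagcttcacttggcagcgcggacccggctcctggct
EVX1: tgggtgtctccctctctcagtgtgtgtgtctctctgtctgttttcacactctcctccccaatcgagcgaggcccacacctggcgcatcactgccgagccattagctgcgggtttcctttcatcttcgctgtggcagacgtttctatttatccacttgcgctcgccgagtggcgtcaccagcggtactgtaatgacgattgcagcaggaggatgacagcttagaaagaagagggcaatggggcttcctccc
The CDX2 and CDX4 promoters each held a TCF/LEF core and an octamer, and CDX2 also held a CDX core 181 bases before its start, read on the other strand. NKX1-2 and EVX1 held none of the 4 motifs in this window. Over the 35116 promoters of the table, 11.2% held the TCF/LEF core, 8.93% the CDX core, 2.76% the T-box core and 1.63% the octamer. G and C made up 45.2% of the CDX2 window, 50.8% of that of CDX4, 55.6% of that of EVX1 and 78.0% of that of NKX1-2, against a median of 58.0% over all promoters. The CDX2, NKX1-2 and EVX1 windows lay wholly inside a peak and no base of the CDX4 window did.

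In hESC, endoderm and foregut the 8 genes spanned a wide range of levels. Per length, LIN28A was highest in every group, with group means of 136 to 190 RPKM (CPM per kilobase of exon). SALL4 followed in endoderm at 16.0 RPKM, and CDX1, CDX2 and CDX4 all stayed under 0.5 RPKM there. CDX2 rose above that mark in foregut alone, at 5.26 RPKM in controls. In bulk samples fewer cells of a type and less RNA per cell cannot be told apart.

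**Figure D1:**
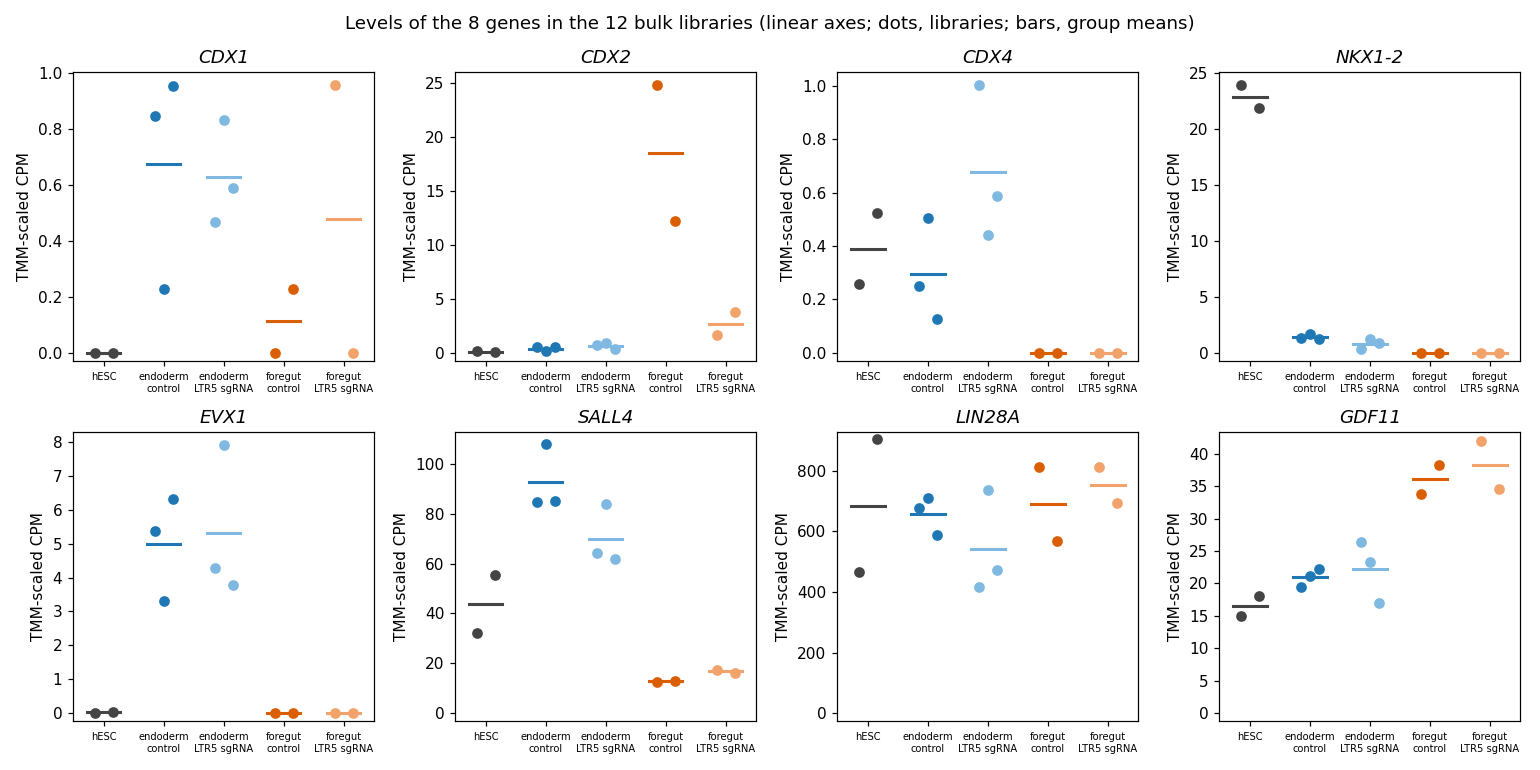
Level of each of the 8 genes in the 12 bulk libraries, in TMM-scaled CPM on linear axes, 1 panel per gene with its own scale, dots being libraries and bars group means. CDX2 stands out in foregut, NKX1-2 in hESC, EVX1 in endoderm, and SALL4 is highest in endoderm and lowest in foregut.

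Endoderm was compared with hESC to ask which of these genes change as the cells leave pluripotency under WNT and Activin. Of the 8 genes, 4 were called, 3 higher and 1 lower, against 26.0% of the 20818 genes tested (14.2% higher and 11.8% lower). For a gene to be called, edgeR had to give an adjusted p below 0.05 together with a change of more than 2-fold. CDX1, EVX1 and SALL4 were higher in endoderm and NKX1-2 was lower. Groups did not overlap for 6 of the 8 genes, against 60.3% of all genes tested.

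Among the CDX genes, CDX1, a member of the family that is on in the primitive streak, had no read in either hESC library. In control endoderm it stood at 0.846, 0.230 and 0.956 CPM, so all endoderm libraries were above hESC, though by few reads, 37 in all. Set against a floor of 3 counts over the hESC group, the level was at least 10.3-fold higher (edgeR adjusted p = 0.0021), and in a fit of all 12 libraries the adjusted p was 0.0562. CDX2 was at 0.128 and 0.0402 CPM in hESC and at 0.498, 0.138 and 0.510 CPM in endoderm. All 3 endoderm libraries lay above both hESC libraries, but the difference did not pass (log2 fold change 2.1 ± 1.03 SE, adjusted p = 0.125). CDX4 was at 0.256 and 0.522 CPM in hESC and 0.249, 0.505 and 0.128 CPM in endoderm, and the groups overlapped (log2 fold change −0.36 ± 0.75 SE, adjusted p = 0.737).

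The 2 homeobox genes of the progenitor zone and streak went opposite ways. NKX1-2, which marks the preneural part of the tail bud, was at 23.9 and 21.9 CPM in hESC and at 1.34, 1.70 and 1.21 CPM in endoderm. The groups were far apart and NKX1-2 fell by 3.99 on the log2 scale (± 0.26 SE, edgeR adjusted p = 1.62e-08), which is 15.9-fold. EVX1, a homeobox gene of the posterior streak, had 1 read in the hESC group and stood at 5.37, 3.31 and 6.31 CPM in endoderm. Its ratio was 234, with a counting interval of 41.7 to 9280, and the test gave an adjusted p of 4.65e-07 in edgeR. NKX1-2 overlaps the gene RP13-238F13.3, EVX1 overlaps EVX1-AS and GDF11 overlaps SARNP, each on the opposite strand, and since the strand setting of the counting is not given in the sources used here, their reads may be shared.

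Of the remaining factors, SALL4, which works in pluripotent cells and in the posterior mesoderm, was at 32.2 and 55.5 CPM in hESC and 84.8, 108 and 85.0 CPM in endoderm. All endoderm libraries were higher, by a log2 fold change of 1.08 ± 0.24 SE (2.11-fold, edgeR adjusted p = 0.00189). That call rested on single libraries, since the log2 fold change was 0.73 (adjusted p = 0.0657) without hESC replicate 1 and 0.95, under the fold limit, without endoderm replicate 2. LIN28A was at 467 and 904 CPM in hESC and 677, 709 and 587 CPM in endoderm, the endoderm libraries lying inside the hESC range (log2 fold change −0.06 ± 0.23 SE, adjusted p = 0.863). GDF11 was at 14.9 and 18.1 CPM in hESC and 19.5, 21.2 and 22.2 CPM in endoderm, without overlap but also without a call (log2 fold change 0.34 ± 0.21 SE, adjusted p = 0.221).

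Most of the wider caudal and tail bud network was called higher in endoderm too. Of 29 tested members of that list, 20 were higher in endoderm and 2 lower, with a median log2 fold change of 3.31 against 0.045 over all genes tested. FGF17, an FGF ligand of the streak and tail bud, rose from 0.168 CPM in hESC to 1104 CPM in endoderm (group means). The mesendoderm gene MIXL1 rose by 8.84 ± 0.34 SE (adjusted p = 1.27e-10) and SP5, a direct WNT target, by 8.67 ± 0.36 SE (adjusted p = 2e-10), both on the log2 scale in edgeR. Among the genes that define the nuclear classes below, TBXT rose by 8.09 and TBX6 by 4.56, while SOX2 fell by 2.73 on the log2 scale. None of the 6 trunk HOX genes that could be tested was called in either direction.

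The partners and relatives of the other members moved in both directions, and their counts are to be read against the 26.0% of all genes called. Of 13 genes of the LIN28 and let-7 axis, 3 were higher and 5 lower, among them MYCN, a let-7 target, which fell by 2.61, and TUT4, the enzyme that marks let-7 precursors for decay, which rose by 1.52 on the log2 scale. LIN28B, the paralog of LIN28A, fell by 1.11. Of 16 genes of the GDF11 pathway, 3 were higher and 1 lower, a share near that of all genes. FST, a secreted inhibitor of the ligand, rose by 1.5, the inhibitory SMAD7 by 1.17 and the receptor-activated SMAD3 by 1.45, while PCSK5, the protease that activates GDF11, fell by 1.20 on the log2 scale. The SALL paralogs split, SALL1 rising by 1.19 and SALL2 falling by 1.54. Of 7 hindgut and intestine genes, 3 were higher and 1 lower, and HNF4A, a gut and liver factor, was at 14.56 CPM in endoderm with no read in hESC. The gene that fell was VIL1, by 2.06 on the log2 scale.

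**Figure D2:**
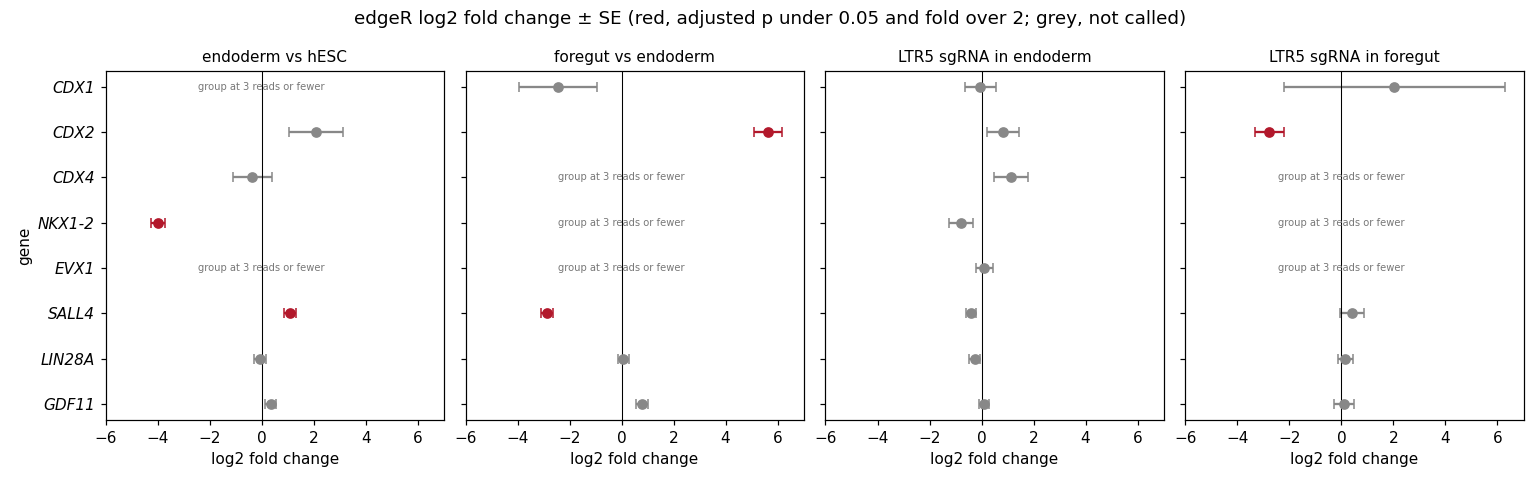
Log2 fold change ± SE of each gene in 4 comparisons from edgeR, red where the gene was called and grey where it was not, with genes at 3 reads or fewer in a group written out instead of plotted. CDX2 is the gene plotted in red both in foregut against endoderm and with LTR5 sgRNA in foregut.

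Foregut controls, grown for 3 further days, were compared with the same endoderm controls. This comparison and that with hESC share the endoderm libraries. The endoderm and foregut libraries were deposited as separate sets, so stage, protocol and set cannot be told apart. Of the 8 genes, 4 were called, 1 higher and 3 lower, against 29.0% of 21466 genes tested (14.1% higher and 15.0% lower). Groups did not overlap for 7 of the 8 genes, against 58.9% of all genes. CDX2 was the gene that rose, while NKX1-2, EVX1 and SALL4 fell.

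CDX2 stood at 24.8 and 12.2 CPM in foregut controls, against at most 0.510 CPM in endoderm. Both foregut libraries were far above every endoderm library, although they differed from each other, and the log2 fold change was 5.62 ± 0.53 SE (49.1-fold, edgeR adjusted p = 8.72e-05). Markers of amnion and trophoblast, where CDX2 is also known to act, were higher in foregut as well, their sum over 8 genes being 23.41 to 36.96 CPM in endoderm and 183.1 to 205 CPM in foregut controls. Of these 8, GATA3, KRT7, VTCN1 and IGFBP3 were called higher and TFAP2C lower, and their part in the result was not tested. CDX1 was at 0 and 0.228 CPM in foregut, below the lowest endoderm library (edgeR adjusted p = 0.225), and was called lower without foregut control replicate 2 (adjusted p = 0.024). CDX4 had no read in foregut and its level was at least 7.28-fold lower than in endoderm, which edgeR did not call (adjusted p = 0.0741). It was called by DESeq2 (adjusted p = 0.0497), by limma-voom (0.0234), in the fit of all 12 libraries (0.0254) and without foregut control replicate 1 (0.0482).

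NKX1-2 and EVX1 also had no read in either foregut control. Against a floor of 3 counts over the group, NKX1-2 was at least 33.6-fold lower (edgeR adjusted p = 0.00208) and EVX1 at least 113-fold lower (adjusted p = 0.000154). SALL4 was at 12.65 and 12.67 CPM, below both hESC and endoderm libraries, and fell by 2.87 on the log2 scale (± 0.24 SE, 7.29-fold, edgeR adjusted p = 4.89e-05). The foregut libraries also detected fewer genes, and whether that bears on these zeros was not tested. LIN28A, at 811 and 570 CPM, overlapped endoderm (adjusted p = 0.798). GDF11, at 33.7 and 38.3 CPM, was above every endoderm library and passed the p threshold but not the fold limit (log2 fold change 0.79 ± 0.22 SE, adjusted p = 0.0239).

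In the same comparison most of the caudal network was called lower, with 16 of 29 tested genes lower and 3 higher and a median log2 fold change of −2.60 against −0.091 over all genes tested. FGF17 was at 0.0822 CPM in foregut controls, FGF8, a further FGF ligand, had no read there against 24.3 CPM in endoderm, and MIXL1 fell by 8.59 on the log2 scale. Of 8 trunk HOX genes tested, HOXA5 and HOXB5 were called higher, at 1.55 and 2.19 CPM in foregut, and HOXB9 and HOXD10 lower, from 0.459 and 0.418 CPM in endoderm to no read in foregut. Of 9 hindgut and intestine genes, 2 were higher and 2 lower. VIL1, which builds the microvilli of gut cells, rose from 0.891 to 110.7 CPM and FABP1, a fatty acid carrier of enterocytes and liver, from no read to 1.36 CPM, while HOXD13, a gene of the most distal gut and limb, and GUCY2C, an intestinal receptor, had no read in foregut. The LIN28 and let-7 list had 6 of 13 genes lower and none higher. The GDF11 list had 3 higher and 3 lower of 15, and WFIKKN1, which binds GDF11, was at 43.6 CPM against 2.61 CPM in endoderm. Among paralogs, SALL3 fell by 5.01, SALL1 by 2.77 and LIN28B by 1.58 on the log2 scale.

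Endoderm and foregut were then each compared with and without LTR5 sgRNA, to see whether the genes respond when the element is targeted. The controls are those of the comparisons above. In endoderm none of the 8 genes was called, against 0.0343% of 20407 genes tested in edgeR, 0.00490% higher and 0.0294% lower, and DESeq2 and limma-voom called none of the 8 as well. No member had an unadjusted p under 0.05. SALL4 had the smallest, at 64.2, 83.9 and 61.8 CPM with sgRNA, all below the controls (log2 fold change −0.40, SE 0.19, edgeR unadjusted p = 0.0568, and adjusted p = 0.979). It was the single member whose groups did not overlap, against 10.0% of all genes. The other 7 genes differed by log2 fold changes from −0.79 (NKX1-2) to 1.14 (CDX4), with overlapping libraries.

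In foregut 5 of the 8 genes could be tested, as CDX4, NKX1-2 and EVX1 had no read in any of the 4 libraries. CDX2 was called lower and no member higher, against 0.165% of 20044 genes tested, 0.115% lower and 0.0499% higher. It was at 1.63 and 3.77 CPM with sgRNA and 24.8 and 12.2 CPM without. Both sgRNA libraries lay below both controls, and CDX2 fell by 2.77 on the log2 scale (± 0.57 SE, 6.82-fold, edgeR adjusted p = 0.000993). The SE and p-values of this fit match a variance pooled over all genes, so this p does not measure the spread of CDX2 alone. The call was lost in limma-voom (adjusted p = 0.743), in a fit of all 12 libraries (adjusted p = 0.0512) and without foregut control replicate 1, where the log2 fold change was −2.18 (adjusted p = 1). CDX2 and SALL4 were the members without overlap, against 27.3% of all genes, and SALL4 was higher with sgRNA at 17.3 and 16.1 CPM (log2 fold change 0.41 ± 0.47 SE, adjusted p = 1).

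The other 3 tested members overlapped between foregut groups. LIN28A was at 812 and 694 CPM with sgRNA and GDF11 at 42.0 and 34.6 CPM, while CDX1 had 0.957 CPM in a single sgRNA library and no read in the other. Summed levels of 6 cardiac and lateral mesoderm markers were 194.8 to 227.6 CPM in foregut controls and 80.8 to 123.5 CPM with sgRNA. Nearly all of that sum was GATA4, at 193.7 to 226.7 CPM and 80.29 to 123.5 CPM, so it says little about the other markers. Sums of 5 foregut markers were 375.4 to 509.8 CPM in controls and 330.9 to 417.3 CPM with sgRNA. Other sums were higher with sgRNA in both libraries. That of 8 amnion and trophoblast markers was 227.2 to 264.3 CPM against 183.1 to 205 CPM. By group means KRT7 (88.51 against 63.05 CPM), IGFBP3 (133.1 against 94.81 CPM) and GABRP were higher. GATA3, TFAP2A, TFAP2C, ISL1 and VTCN1 were lower. The sum of 3 endothelial markers was 99.1 to 104.1 CPM against 54.5 to 68.2 CPM. That of 8 paraxial and somitic markers was 31.9 to 33.7 CPM against 13.5 to 14.5 CPM. Whether these shifts bear on CDX2 was not tested. VIL1 was at 58.2 CPM with sgRNA against 110.7 CPM and FABP1 at 0.301 CPM against 1.36 CPM, and no gene of the hindgut and intestine list was called. No list of pathway genes held a call with sgRNA in either tissue. The nearest LTR5 element on GRCh37 was 1450.8 kb from CDX2, and over the 8 genes the distance ran from 223.3 kb (CDX1) to 4367.8 kb (SALL4).

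The difference of the sgRNA effect between foregut and endoderm was −3.61 ± 0.88 SE for CDX2 on the log2 scale, with an unadjusted p of 0.00103 and an adjusted p of 0.186 in edgeR, so the tissues were not shown to differ. None of the 5 members that could be fitted passed, against 0.194% of 22708 genes, 0.0528% with a positive and 0.141% with a negative difference. CDX2 and SALL4 had an unadjusted p under 0.05. limma-voom called no member either, while DESeq2 gave CDX2 an adjusted p of 0.014. Tissue, protocol and set of libraries cannot be told apart in this difference.

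In the gastruloids the question was which nuclei carry these genes. The deposited table held 3646 nuclei, of which 3422 had at least 1000 UMIs, 200 genes and at most 25% mitochondrial UMIs. To compare nuclei at equal depth, 5000 UMIs were drawn at random from each of the 3197 nuclei that had as many, and the 225 shallower ones were left out. TBXT was then found in 628 nuclei, SOX2 in 508, both in 116, TBX6 in 384 and none of these 3 genes in 1906. Median depths before thinning were 17993, 17440, 19577, 17869 and 16454 UMIs in the same order. Scrublet marked 2 of the 116 double positive nuclei as doublets. All shares come from 1 preparation with no replicate, and the intervals are exact 95% binomial ones that cover counting error only.

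Finding no UMI does not make a nucleus negative. Without thinning, 22.5% of the nuclei placed in the class with none of the 3 genes held a TBXT UMI, 20.6% a SOX2 UMI and 14.7% a TBX6 UMI. TBXT and SOX2 were found together in 116 nuclei where 99.8 would be expected if they were independent. SOX2 and TBX6 were found together in 36 nuclei where 61.0 would be expected. Markers of another cell type were also present among the double positives. All 6 axial mesoderm markers had intervals above those of the nuclei with none of the 3, but TBXT, which defines the classes, is among the 6. The notochord gene NOTO was found in 31.9% of double positives (interval 23.6 to 41.2) and in 8.55% of nuclei with none of the 3 (7.33 to 9.90).

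Over all 3197 nuclei, SALL4 was found in 57.1% of nuclei (interval 55.3 to 58.8). A share also depends on a gene's length and introns, so the shares of different genes are not ranked as levels. GDF11 was found in 17.0%, CDX2 in 16.0%, LIN28A in 14.1% and CDX1 in 10.9%. NKX1-2 was found in 3.13%, EVX1 in 1.63% and CDX4, the gene without a peak at its start, in 0.938%. Without thinning the shares were 87.4% for SALL4, 45.2% for GDF11, 39.7% for CDX2, 38.1% for LIN28A, 27.6% for CDX1, 8.88% for NKX1-2, 5.32% for EVX1 and 2.1% for CDX4.

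**Figure D3:**
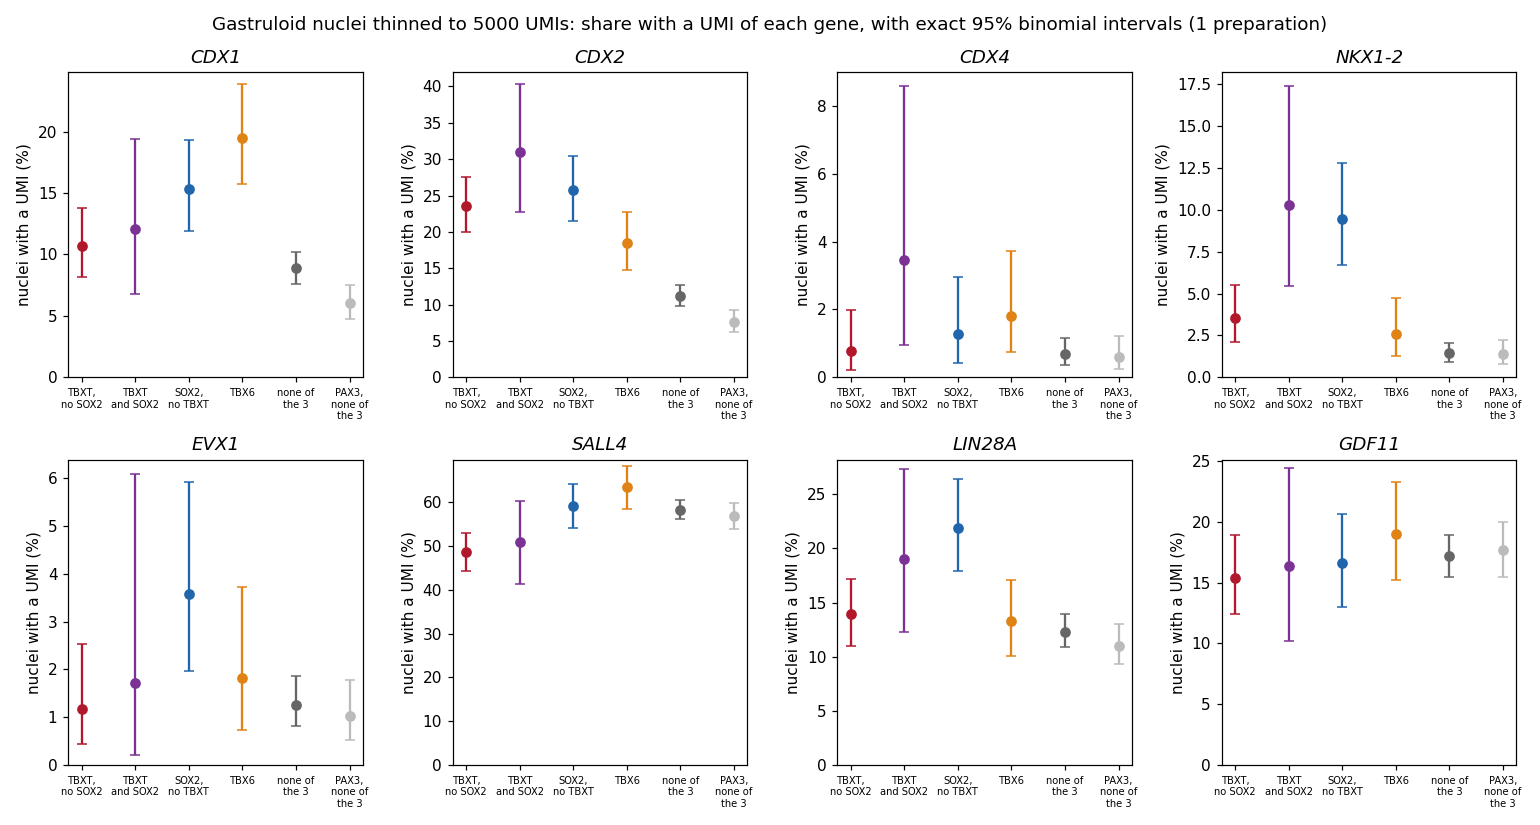
Share of gastruloid nuclei with a UMI of each gene after thinning to 5000 UMIs, in percent, by which of TBXT, SOX2, TBX6 and PAX3 a nucleus held, with exact 95% binomial intervals and 1 preparation. CDX2 stands higher where TBXT or SOX2 was found, NKX1-2 where SOX2 was found and CDX1 where TBX6 was found, and the intervals of GDF11 overlap across the classes at this depth.

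Between double positives and nuclei with none of the 3 genes, 2 of the 8 genes had intervals apart, CDX2 and NKX1-2, both with the higher share in double positives. Over all genes of the gastruloid data 5.24% had a higher share with intervals apart and 2.67% a lower one. CDX2 was found in 31.0% of double positives (22.8 to 40.3) and in 11.2% of nuclei with none of the 3 (9.80 to 12.7). Nuclei with PAX3 and none of the 3 were used as a class for comparison and are called PAX3 nuclei below. In them CDX2 was at 7.65% (6.19 to 9.32), with a median depth of 15600 UMIs. The level of free RNA was not measured, so these nuclei may hold CDX2 RNA of their own. Unthinned, the 3 classes stood at 69.0%, 30.1% and 21.9%. By number of SOX2 UMIs the share of CDX2 was 13.9% with none, 23.7% with 1, 33.6% with 2 and 38.1% with 3 or more, the last over 42 nuclei, whose interval of 23.6 to 54.4 overlaps the classes with 1 and 2.

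NKX1-2 followed SOX2 more than TBXT. It was found in 10.3% of double positives (5.46 to 17.4), in 9.44% of nuclei with SOX2 and no TBXT (6.73 to 12.8) and in 3.52% of those with TBXT and no SOX2 (2.1 to 5.50), the intervals of the last 2 being apart. In TBX6 nuclei it was at 2.60% (1.26 to 4.74) and in PAX3 nuclei at 1.36% (0.779 to 2.20). Unthinned, its share was 26.7% of double positives and 4.33% of PAX3 nuclei. Of the 100 nuclei with NKX1-2, 49 held SOX2, where 15.9 would be expected if the 2 genes were independent. Its pooled level over all UMIs was 23.0 CPM in SOX2 nuclei (Poisson interval 20 to 26.2) and 4.27 CPM (3.61 to 5.03) in nuclei with none of the 3.

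CDX1 had its highest share elsewhere. It was found in 19.5% of TBX6 nuclei (15.7 to 23.9), against 11% of TBXT nuclei (8.65 to 13.7), 14.6% of SOX2 nuclei (11.6 to 17.9) and 6.03% of PAX3 nuclei (4.74 to 7.55). The TBX6 interval lay above those of the TBXT and PAX3 classes and overlapped that of SOX2, and the unthinned shares were 44.5% in TBX6 and 17.6% in PAX3 nuclei. In nuclei with 3 or more TBX6 UMIs it reached 38.1%, but these were 21 nuclei with an interval of 18.1 to 61.6. CDX2 in TBX6 nuclei was at 18.5% (14.7 to 22.7). CDX4 was found in 0.595% to 3.45% of nuclei in the 5 classes and the PAX3 class, with intervals that all overlap that of the PAX3 class, in 30 nuclei in total.

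EVX1 was found in 3.15% of SOX2 nuclei (1.81 to 5.06), 1.27% of TBXT nuclei (0.552 to 2.49) and 1.02% of PAX3 nuclei (0.528 to 1.77). Of these, the SOX2 and PAX3 intervals were apart, and unthinned their shares were 9.65% and 2.63%. The SOX2 interval of EVX1 overlapped that of the nuclei with none of the 3, at 1.26% (0.808 to 1.87). In nuclei with SOX2 and no TBXT, LIN28A was found in 21.9% (17.9 to 26.4) against 13.9% of those with TBXT and no SOX2 (11 to 17.2) and 12.3% of those with none of the 3 (10.9 to 13.9), or unthinned 55.4%, 36.3% and 34.2%. SALL4 had a lower share with TBXT, at 49% of TBXT nuclei (45.1 to 53.0) against 63.5% of TBX6 nuclei (58.5 to 68.4) and 58.3% of nuclei with none of the 3 (56.1 to 60.6), or unthinned 82.3%, 90.9% and 87.8%. GDF11 lay between 15.6% and 19.0% in the TBXT, SOX2, TBX6 and none classes and in double positives, with overlapping intervals, and no interval lay above that of PAX3 nuclei, 17.7% (15.5 to 20). Unthinned, its share was 57.8% in double positives, 52.4% in SOX2, 42.7% in TBXT, 40.1% in TBX6, 45.6% in none and 45.2% in PAX3 nuclei. Its pooled level was 49.3 CPM in SOX2 nuclei (44.9 to 53.9) and 39.5 CPM in those with none of the 3 (37.4 to 41.7), with the intervals apart.

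Since axial mesoderm markers were found among TBXT nuclei, the classes were also split by a UMI of NOTO, SHH or FOXA2, a split chosen after the marker lists were seen. Of the 116 double positives, 49 held such a marker. CDX2 was found in 34.3% of the 67 double positives without one (23.2 to 46.9) and in 26.5% of the 49 with one (14.9 to 41.1). NKX1-2 was at 14.9% without (7.4 to 25.7) and 4.08% with (0.498 to 14), and LIN28A at 26.9% without (16.8 to 39.1) and 8.16% with (2.27 to 19.6), the intervals overlapping for all 3 genes. In nuclei with TBXT and no SOX2 the split parted SALL4, found in 59.8% without an axial marker (53.2 to 66.2) and 39.2% with one (33.4 to 45.2). CDX2 there was at 21.8% (16.7 to 27.6) and 25.2% (20.2 to 30.7). The intervals of CDX2 without an axial marker lay in both classes above its share of 9.74% (8.35 to 11.3) in the nuclei that held neither such a marker nor any of the 3 class genes. Among nuclei with none of the 3 class genes but an axial marker, CDX2 was at 20.6% (15.7 to 26.1), apart from the 9.74% and overlapping the nuclei with TBXT and an axial marker.

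**Figure D4:**
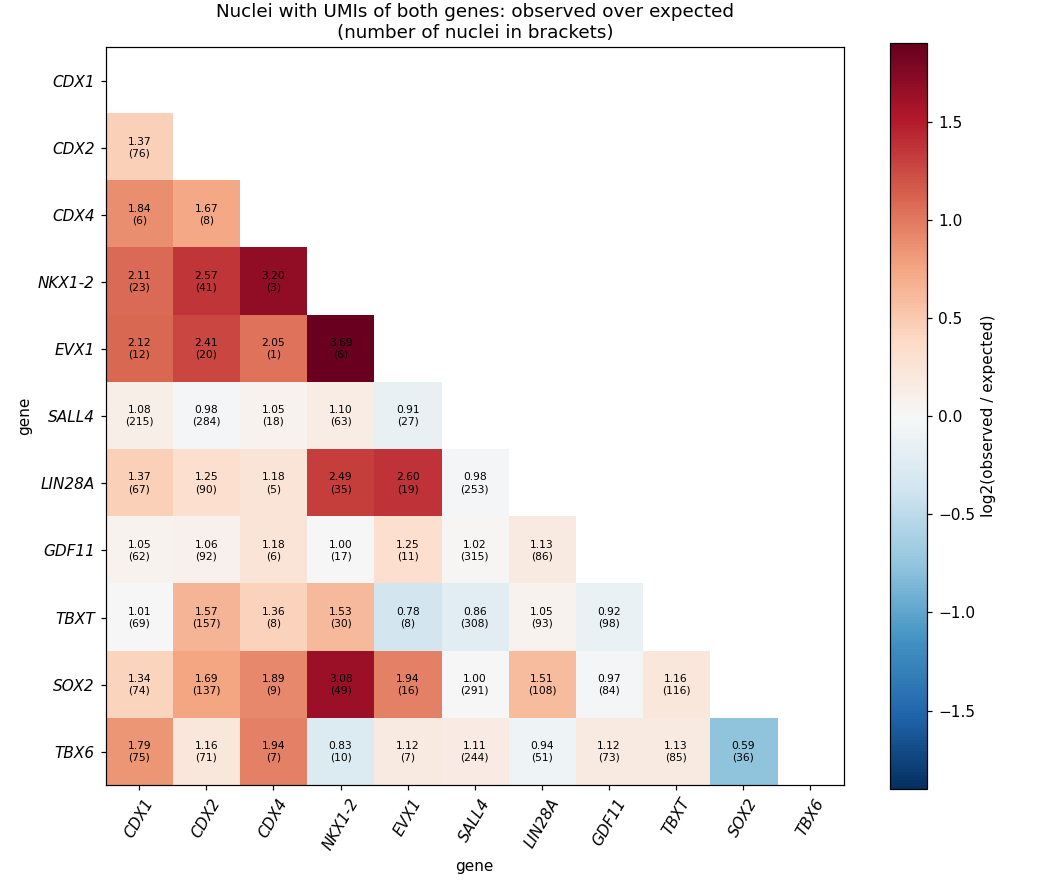
Nuclei with UMIs of both genes of a pair, as the ratio of the observed number to the number expected if the 2 genes were independent, on a log2 colour scale, after thinning to 5000 UMIs, with the numbers printed. CDX1, CDX2, CDX4, NKX1-2 and EVX1 form a block of ratios above 1, while SALL4 and GDF11 stay near 1 with the other genes.

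NKX1-2 and EVX1 were found with CDX2 and with LIN28A more often than independence would give. Of the 100 nuclei with NKX1-2, 41 also held CDX2 where 16.0 would be expected, and 35 held LIN28A where 14.1 would be expected. Of the 52 nuclei with EVX1, 20 held CDX2 where 8.30 would be expected and 19 held LIN28A where 7.32 would be expected. CDX1 and CDX2 were found together in 76 nuclei, 1.37 times the 55.5 expected, which is 21.8% of CDX1 nuclei and 14.9% of CDX2 nuclei. All 3 CDX genes were found in 2 nuclei, 2 of the 3 in 84 and exactly 1 in 714. SALL4 gave ratios of 0.859 to 1.11 with all other genes of the plot. These nuclei share a preparation and a thinned depth, and pairs of rare genes rest on few nuclei.

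The HOX genes of the trunk, known targets of CDX proteins, were set against CDX2 in the same nuclei. Of 14 trunk HOX genes detected, 12 had the higher share in the 510 nuclei with CDX2, against 48.2% of the 17492 other genes. For 8 of the 14 the interval with CDX2 lay above, against 3.68% of all other genes, and for none below, against 3.88%. HOXC8 was found in 23.7% of nuclei with CDX2 (20.1 to 27.7) and 9.04% of those without (7.99 to 10.2), HOXC9 in 7.06% (4.99 to 9.64) and 2.38% (1.84 to 3.03), and HOXB9 in 35.1% (31.0 to 39.4) and 23.1% (21.5 to 24.8). HOXA5 and HOXB5 had the lower share with CDX2, HOXA5 at 8.24% (6.0 to 11) against 10.6% (9.47 to 11.8), with overlapping intervals for both. HOXC5 had the higher share, at 4.51% (2.88 to 6.69) against 2.9% (2.3 to 3.61), also overlapping. In double positives 7 of the 14 had intervals above those of the nuclei with none of the 3 genes and none below.

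Other genes of the caudal network were also set against these classes. Of 29 detected, 11 had intervals above in double positives, among them TBXT, SOX2 and TBX6, which define the classes, and 3 below. FGF17 was found in 44% of double positives (34.8 to 53.5) and 11% of nuclei with none of the 3 (9.65 to 12.5), and WNT3A, the WNT ligand of the tail bud, in 18.1% (11.6 to 26.3) and 3.73% (2.92 to 4.68). None of the 13 genes of the LIN28 and let-7 list and none of the 15 of the GDF11 list had an interval above, and 2 of each had one below. The genes most like a member over thinned nuclei, by Pearson r of log-scaled counts, were FGF17 for CDX1 (0.155), CDX2 (0.269), NKX1-2 (0.303) and LIN28A (0.207), CYP26A1 for EVX1 (0.198), GREB1L for SALL4 (0.187), SLC8A1-AS1 for CDX4 (0.111) and SSBP2 for GDF11 (0.089). All of these are weak.

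Over the 12 bulk libraries, which fall into 3 tissues, likeness to other genes is a description and libraries of a tissue share much of it. By Pearson r of log2(CPM + 1), CDX2 was most like SUB1P1 (0.975), PLLP (0.968) and PDX1 (0.966), the last a homeobox gene of pancreas and duodenum. NKX1-2 was most like UTF1 (0.994), GPR50 (0.988) and HEATR1 (0.985), and EVX1 most like TBXT (0.988), ITGA9 (0.984) and LGALS12 (0.982). SALL4 was most like DHTKD1 (0.990), LIN28A like TJP1 (0.893) and GDF11 like FLYWCH2 (0.981). CDX1 and CDX4 had too low a level for this measure.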

How the data were processed

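RNA was measured in 12 bulk libraries of H9 cells and in nuclei of 1 gastruloid preparation, whose accessible chromatin was also read. The authors aligned bulk reads with HISAT2 to hg19 and counted uniquely mapped reads with featureCounts, and deposited the numbers of reads for each gene and each transposable element as raw counts. For gastruloids, per the file headers, the authors used cellranger-arc on GRCh38, and the deposited values are UMI counts per nucleus and the starts and ends of peaks. The peak file holds positions and no signal. A count of uniquely mapped reads leaves out reads shared with near-identical copies.

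Genes with at least 3 reads in 1 library of a comparison were tested with edgeR 4.0.16 (TMM, quasi-likelihood F test, 2-sided, Benjamini-Hochberg adjustment over all genes tested) in R 4.3.3, and called below an adjusted p of 0.05 if they also changed more than 2-fold. Each comparison was fitted on its own groups, without the replicate number. Alternatives were DESeq2 1.42.0, limma 3.58.1 (voom), no filter, at least 10 reads in total, no mitochondrial genes, a replicate block, a fit of all 12 libraries and leaving out each library. Levels are CPM with TMM factors over the 12 libraries, or RPKM by exon length. Simulated data had 200 genes changed 4-fold. Of these, 195 were recovered in endoderm against hESC and 150 in foregut against endoderm. With sgRNA, 191 were recovered in endoderm and 98 in foregut, and 82 in the interaction. Unchanged genes called numbered 9, 20, 4, 7 and 24 in the same order. The changed genes were drawn above a limit on mean reads, so these rates do not cover genes with few reads, such as the CDX genes in hESC and endoderm.

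Nuclei were handled with python 3.11.15, numpy 2.4.6, scipy 1.17.1 and scanpy 1.11.5, which also ran Scrublet, whose 70 marked nuclei were kept. The table held 3646 distinct barcodes. A class is all nuclei with a UMI of the named gene after thinning, and classes overlap unless said otherwise. PAX3 nuclei are the exception, being those with a PAX3 UMI and none of TBXT, SOX2 or TBX6. Alternatives were 2000 or 10000 UMIs, no thinning, another draw, no mitochondrial limit, no marked doublets, 2 UMIs to enter a class and classes on unthinned counts. Plots were drawn with matplotlib 3.10.9. Named besides the members were the class genes, up to 3 called genes of each pathway list with the largest change, and the genes most like a member. Further genes, among them the other SALL, SMAD, HOX and axial genes, were picked after their values were seen. The members and lists were chosen with earlier results of these data known. The paper's other data sets were not used here.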

Additional observations from a re-analysis of the deposited data

Results flagged for a closer look

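The effect of LTR5 sgRNA differed between foregut and endoderm at an unadjusted p under 0.05 for 2 of the 8 genes. For CDX2 the effect in foregut minus that in endoderm was −3.61 on the log2 scale (unadjusted p = 0.00103, adjusted p = 0.186, edgeR interaction). CDX2 was lower in both foregut sgRNA libraries than in both controls, and overlapped in endoderm. For SALL4 it was 0.79 (unadjusted p = 0.0255, adjusted p = 0.544), with all 3 endoderm sgRNA libraries below their controls and both foregut sgRNA libraries above theirs. Neither passed the adjustment over all genes in edgeR, and the cause was not tested.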

How the results depend on the processing

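No member called in endoderm against hESC or foregut against endoderm changed direction under another tool or filter. CDX4, not called by edgeR in foregut against endoderm, was called there by DESeq2 and limma-voom. Log2 fold changes kept their direction and side of the threshold in 370 pairs of a gene and a setting, became significant in 7, lost significance in 7 and reversed in 20. LIN28A reversed to 0.02 in endoderm against hESC with limma-voom, and CDX1 to 0.21 with sgRNA in endoderm. Without 1 library each, LIN28A ranged from −0.47 to 0.50 in endoderm against hESC, from −0.20 to 0.36 in foregut against endoderm and from −0.08 to 0.40 with sgRNA in foregut. CDX4 ranged from −1.0 to 0.23 in endoderm against hESC. With sgRNA in endoderm CDX1 ranged from −0.48 to 0.26, EVX1 from −0.27 to 0.31 and GDF11 from −0.04 to 0.25, and in foregut GDF11 from −0.06 to 0.25 and CDX1 from −4.89 to 6.74. Genes called with sgRNA in endoderm, 7 in edgeR, were 47 in DESeq2, 186 with no filter and 1 each in limma-voom, with at least 10 reads in total and with all 12 libraries. In foregut, 33 became 11 in limma-voom and 209 with all 12 libraries, each with 0 members called. For the difference between tissues, 44 became 236 in DESeq2 and 139 with no filter, each with 1 member called. Without 1 library each, genes called ranged from 1 to 9 with sgRNA in endoderm, 16 to 527 in foregut, 0 to 805 for the difference, 4006 to 5544 in endoderm against hESC and 4976 to 8096 in foregut against endoderm, and members called from 0 to 1 with sgRNA in foregut, 3 to 4 in endoderm against hESC and 4 to 5 in foregut against endoderm. The cause of these changes was not tested.

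Replicate numbers are shared between groups, but nothing in the labels says that they pair libraries, and deviations of same-numbered libraries correlated at −0.217 to 0.173. With a replicate block, CDX2 with sgRNA in foregut was −2.79 (edgeR adjusted p = 0.0543), so that 0 members and 19 genes were called, and 16 genes for the difference between tissues. Under the block LIN28A was 0.09 in endoderm against hESC and −0.03 in foregut against endoderm, and CDX1 was 0.07 with sgRNA in endoderm. Crossed numbers, chosen after seeing the data, gave 74 genes in foregut.

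Of the 8 genes, 2 had intervals apart in double positive nuclei. The number was 1 at 2000 UMIs, 5 at 10000, 8 without thinning, 4 with classes on unthinned counts and 0 where classes needed 2 UMIs. Leaving out marked doublets kept it at 2. The share of all genes was not computed at these other settings, and double positives were deeper before thinning, as given above. The counts are therefore not read as results about the 8 genes. Without thinning, 37 of 40 shares moved beyond their interval.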
